A study of Rattus norvegicus with 4 samples.

Results

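The Rab small GTPases described here are the 47 rat genes of a fixed list of Rab family members, and 44 of them had a probe set annotated to that gene alone, among 17245 genes measured. Rab26 shared its 1 probe set with another gene, and Rab37 and Rab39b were not analysed here. Cultured rat cortical neurons were profiled on 4 whole-transcript expression arrays, 2 from a control group and 2 from a PHF6 knockdown group, to ask which transcripts differ when the X-linked chromatin-associated protein PHF6 is depleted. All cells were of wild type genotype and Sprague Dawley background, taken at stage E18, and RNA was collected 5 days after infection with the lentivirus pLL3.7. The control virus carried a control shRNA and the other virus carried the shRNA named PHF6shRNA-2. With a single shRNA against PHF6, loss of PHF6 and other effects of that shRNA cannot be told apart. The arrays of a group are labelled as biological duplicates, but the labels do not say whether these were separate cultures or litters, so p-values measure only the spread between these arrays.

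Rab proteins are molecular switches on the membranes of the cell. Bound to GTP they recruit effectors such as tethers, motors and coat adaptors to 1 membrane compartment, guanine nucleotide exchange factors (GEFs) load the GTP, GTPase-activating proteins (GAPs) end the active state, and escort proteins and GDI attach or withdraw the lipid-anchored protein. In neurons, endosomal Rabs sort receptors and adhesion molecules along axons and dendrites, secretory Rabs carry cargo from the endoplasmic reticulum through the Golgi to the growing membrane, and Rab3 and Rab27 proteins sit on synaptic and secretory vesicles. The measured genes were ordered by these roles into 19 endosomal, 14 secretory, 6 synaptic vesicle and 5 other members.

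Values are deposited array intensities on a linear scale, and a difference is PHF6 shRNA minus control shRNA on the log2 scale with its standard error (SE) from limma. An intensity depends on the probes as well as on the transcript, so levels of different genes were not set against each other. A gene was called above background on an array where its intensity exceeded the background level, set at percentile 95 of 206 receptor genes of olfactory and vomeronasal neurons. That level lay at 41.1 and 32.5 on the control arrays and at 39.9 and 32.7 on the PHF6 shRNA arrays. Median intensity was between 40.9 and 41.7 on the 4 arrays, and 40 of the 44 Rab genes were above background on every array. The exceptions were Rab20 and Rab27a, above background on no array, and Rab32 and Rab38, above it on 2. The Phf6 probe set read 32.8 and 34.3 on the control arrays and 34.4 and 31.3 on the PHF6 shRNA arrays, a difference of -0.03 ± 0.09 (SE), and was above background on 1 array, so it does not check the labels. All 9 neuronal markers were above background on all 4 arrays.

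Rab9b and Rab1a were higher in the PHF6 shRNA neurons, and Rab21, Rab4a, Rab2b, Rab1b, Rab10 and Rab11b were lower. None of these differences passed the threshold of 0.05 for the limma p adjusted by Benjamini-Hochberg over all 17245 genes. The adjusted count was 0 of 44 Rab genes, beside a background of 0% of all genes, and the smallest adjusted p of any gene was 0.23. With the duplicate number as a block (the replicate block), 7 Rab genes passed (15.9% of 44, beside 5.27% of all genes). The labels do not state that these numbers pair the arrays. At an unadjusted limma p under 0.05, 6 Rab genes were lower (13.6% of 44, beside 7.52% of all genes) and 2 were higher (4.5%, beside 3.28% of all genes). The arrays of the 2 groups did not overlap for 14 Rab genes that were lower (31.8%, beside 21.7% of all genes) and for 3 that were higher (6.8%, beside 16% of all genes). With 2 arrays a group, an exact permutation test of 1 gene cannot give a two-sided p below 0.333.

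**Figure D1:**
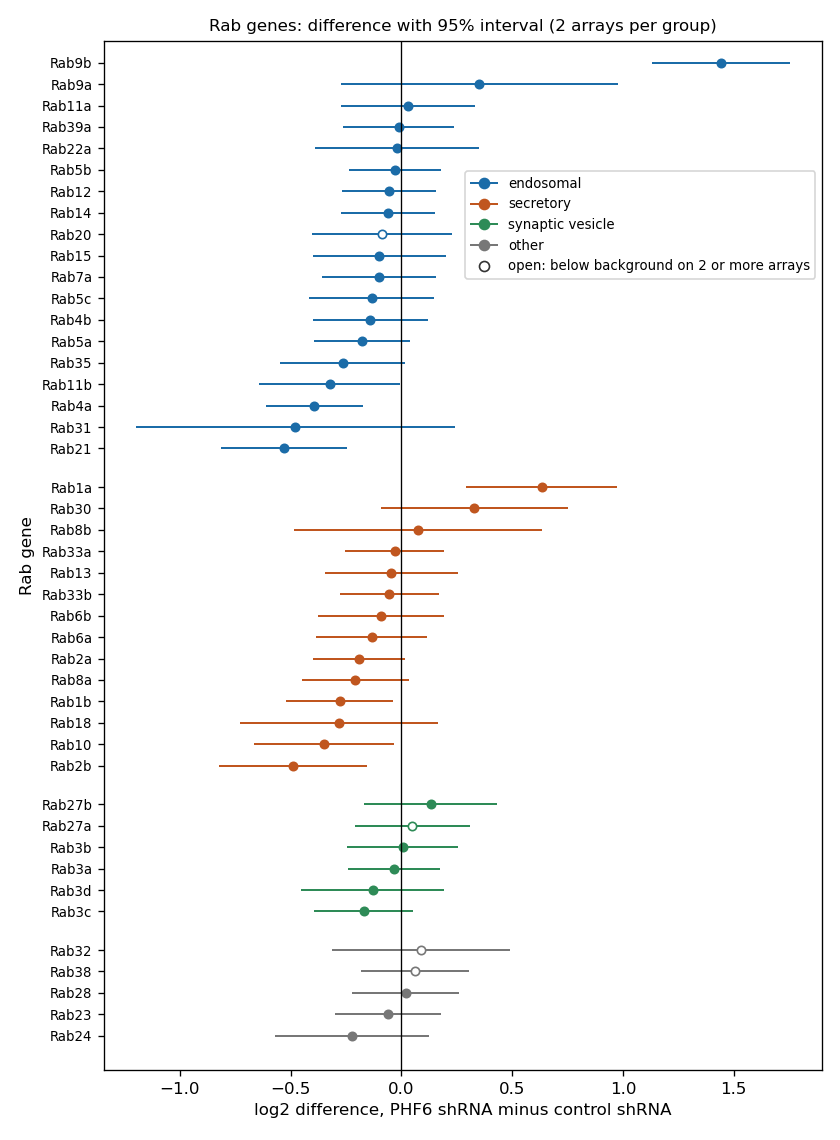
Difference between PHF6 shRNA and control shRNA neurons (log2, horizontal axis) for each of the 44 measured Rab genes (vertical axis), with its 95% interval from limma, 2 arrays per group; colours give the class and open points mark genes below background on 2 or more arrays. Rab9b lies apart at 1.44 and Rab1a at 0.63, while most other points lie between -0.5 and 0.

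Among the endosomal Rab genes, Rab9b had the largest difference of the family. Rab9 proteins act on late endosomes in the return of cargo receptors to the Golgi, and Rab9b is one of the 2 Rab9 genes. Rab9b read 344 and 412 on the control arrays and 965 and 1085 on the PHF6 shRNA arrays. Both PHF6 shRNA arrays were above both control arrays, by 2.72-fold on average, and the distance between the groups was larger than that between duplicates. The log2 difference was 1.44 ± 0.12 (SE, n = 2 arrays per group; 95% interval 1.14 to 1.75; limma adjusted p = 0.23), the 2nd highest difference and the 2nd smallest p of all 17245 genes. Leaving out 1 PHF6 shRNA array took Rab9b past the threshold, with a limma adjusted p of 0.030 without replicate 1 and 0.011 without replicate 2, and leaving out a control array gave 0.54 without replicate 1 and 0.47 without replicate 2. Its paralog Rab9a read 325 and 439 on the control arrays and 386 and 602 on the PHF6 shRNA arrays. The Rab9a groups overlapped, and its difference of 0.35 ± 0.25 had an interval from -0.27 to 0.97. It was 0.67 without PHF6 shRNA replicate 1 and 0.03 without PHF6 shRNA replicate 2.

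Rab21 and Rab4a, both of the early endosome, were lower. Rab21 takes part in the endocytosis of integrins, and it read 237 and 273 on the control arrays and 186 and 167 on the PHF6 shRNA arrays. Its groups did not overlap, with a log2 difference of -0.53 ± 0.11 (SE; 95% interval -0.81 to -0.25; limma adjusted p = 0.24), or 1.44-fold lower. Rab4a drives fast recycling from early endosomes to the plasma membrane, and it read 287 and 295 on the control arrays and 229 and 215 on the PHF6 shRNA arrays. The duplicates of Rab4a lay close together in both groups, and the difference of -0.39 ± 0.09 (SE; 95% interval -0.61 to -0.18; limma adjusted p = 0.24) was 1.31-fold lower. Rab4b, its paralog, differed by -0.14.

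Of the Rab11 genes, which act in the slower recycling route, Rab11b was lower and Rab11a overlapped between groups. Rab11b read 877 and 1018 on the control arrays and 695 and 820 on the PHF6 shRNA arrays, a difference of -0.32 ± 0.12 (SE; 95% interval -0.64 to -0.01; limma adjusted p = 0.45). Rab11a, the best known Rab of recycling endosomes, read 490.2 and 581 on the control arrays and 516 and 575 on the PHF6 shRNA arrays. The PHF6 shRNA values of Rab11a lay inside the control range, with a difference of 0.03 ± 0.12 and an interval from -0.27 to 0.33. Rab35, which also serves recycling and acts in neurite outgrowth, read 341 and 366 on the control arrays and 271 and 319 on the PHF6 shRNA arrays, without overlap (-0.26 ± 0.11; limma adjusted p = 0.48).

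Rab5a, the master Rab of early endosomes, read 372 and 380.0 on the control arrays and 323 and 343 on the PHF6 shRNA arrays. These groups did not overlap, yet the difference of -0.18 ± 0.08 had an interval from -0.39 to 0.03 (limma adjusted p = 0.56), and a second Rab5a probe set gave -0.18 ± 0.07. Rab5b and Rab5c differed by -0.03 and -0.13, and the sign for Rab5b turned under further quantile normalization and under cyclic loess. Rab7a, which governs late endosomes and lysosomes and the long-range axonal transport of signalling endosomes, read 1808 and 1860.1 on the control arrays and 1595 and 1832 on the PHF6 shRNA arrays. Its upper PHF6 shRNA array lay inside the control range, and the interval of its difference ran from -0.35 to 0.15 around -0.10.

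Rab31, a Rab of trafficking between the Golgi and endosomes, showed how far duplicates could differ. It read 455 and 614 on the control arrays and 288 and 499 on the PHF6 shRNA arrays, so that the groups overlapped despite a difference of -0.48 ± 0.28. That difference was -0.08 without PHF6 shRNA replicate 1 and -0.88 without PHF6 shRNA replicate 2. Replicate 2 was the higher array in both groups, by 0.43 in the control and 0.79 in the PHF6 shRNA group. With the replicate block, the limma adjusted p of Rab31 was 0.038, but the labels do not state that these numbers pair the arrays. Rab14 and Rab12 did not overlap between groups but differed by only -0.06 each, and the sign for Rab12 turned under cyclic loess. The remaining endosomal genes Rab15, Rab20, Rab22a and Rab39a differed by between -0.10 and -0.01, and Rab22a and Rab39a changed sign under quantile normalization and cyclic loess. In all, 16 of the 19 endosomal Rab genes were lower and 3 were higher, with a median of -0.10 beside -0.01 for all genes. That median was -0.20 without PHF6 shRNA replicate 2, -0.17 without control replicate 1, -0.04 without PHF6 shRNA replicate 1 and -0.06 under cyclic loess.

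Of the secretory Rab genes, Rab1a was higher and its close paralog Rab1b lower. Rab1 proteins control transport from the endoplasmic reticulum to the Golgi. Rab1a read 700 and 874 on the control arrays and 1151 and 1279 on the PHF6 shRNA arrays. All PHF6 shRNA values were above all control values, with a difference of 0.63 ± 0.13 (SE; 95% interval 0.30 to 0.97; limma adjusted p = 0.24), or 1.55-fold higher. The other 3 probe sets of Rab1a were also higher without overlap, by 0.37 ± 0.09, 0.43 ± 0.10 and 0.23 ± 0.08 on the log2 scale, and the last of these was above background on 1 array. Rab1b read 671 and 614 on the control arrays and 549 and 510 on the PHF6 shRNA arrays, a difference of -0.28 ± 0.09 (limma adjusted p = 0.39). Its second probe set overlapped between groups and gave -0.07.

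Rab2b and Rab10 were the other secretory members with an unadjusted p under 0.05. Rab2 proteins act at the Golgi and in the delivery of material to lysosomes, and Rab2b read 239.7 and 249 on the control arrays and 155 and 196 on the PHF6 shRNA arrays. The groups were separate, with a difference of -0.49 ± 0.13 (SE; limma adjusted p = 0.31), or 1.40-fold lower. Rab2a, its paralog, read 1562 and 1610.3 on the control arrays and 1403 and 1377 on the PHF6 shRNA arrays (-0.19 ± 0.08). Rab10, which carries membrane to the growing axon, read 1500.2 and 1758 on the control arrays and 1183 and 1373 on the PHF6 shRNA arrays. It was lower on both PHF6 shRNA arrays than on either control array, with a difference of -0.35 ± 0.12 (SE; limma adjusted p = 0.41).

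Rab8a, Rab6a and Rab30 also did not overlap between groups. Rab8a, which acts in delivery from the Golgi to the plasma membrane, read 433 and 426 on the control arrays and 351 and 394 on the PHF6 shRNA arrays (-0.21 ± 0.10). Rab6a, a Golgi Rab, read 1848 and 1903 on the control arrays and 1604 and 1820.2 on the PHF6 shRNA arrays (-0.13 ± 0.10). Rab30, also of the Golgi, was the third Rab gene with every PHF6 shRNA value above every control value, reading 117 and 160.3 against 163 and 181, with a wide interval from -0.09 to 0.75. Rab18, a Rab of the endoplasmic reticulum and lipid droplets, differed by -0.28 ± 0.18 with overlap, while its second probe set differed by -0.25 ± 0.09 without overlap. With 1 array left out, the first Rab18 value ranged from -0.47 to -0.09. Rab8b, Rab6b, Rab13, Rab33a and Rab33b differed by between -0.09 and 0.07, and the 2 Rab33 genes changed sign under quantile normalization and cyclic loess. Of the 14 measured secretory genes, 11 were lower and 3 higher, with a median of -0.11. This median was -0.20 without PHF6 shRNA replicate 2, -0.17 without control replicate 1 and -0.07 under cyclic loess.

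The synaptic vesicle Rab genes differed by between -0.17 and 0.13, and none had an unadjusted p under 0.05. Rab3a, the most studied Rab of synaptic vesicles, read 1146 and 1110.4 on the control arrays and 1118 and 1088 on the PHF6 shRNA arrays. The groups overlapped, and the difference of -0.03 ± 0.08 had an interval from -0.24 to 0.17 (limma adjusted p = 0.98), with a sign that turned under cyclic loess. Rab3c was lower without overlap, reading 479 and 516 on the control arrays and 435 and 450 on the PHF6 shRNA arrays (-0.17 ± 0.09; interval -0.39 to 0.05). Rab3b differed by 0.01, Rab3d by -0.13 and Rab27b by 0.13, all with overlap, and Rab27a was not above background on any array. The intervals of the 6 genes lay within -0.45 to 0.43, which does not show that they were alike in the 2 groups. With 3 genes higher and 3 lower, the class median of -0.01 turned to 0.01 under quantile normalization and 0.03 under cyclic loess.

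The other 5 members overlapped between groups. Rab23, which acts in Hedgehog signalling, read 259 and 287 on the control arrays and 266 and 256 on the PHF6 shRNA arrays (-0.06; 0.01 under cyclic loess). Rab24, linked to autophagy, differed by -0.22 ± 0.14, and Rab28 by 0.02 ± 0.10. Rab32 and Rab38, the Rabs of lysosome-related organelles, were near background and differed by 0.09 and 0.06.

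**Figure D2:**
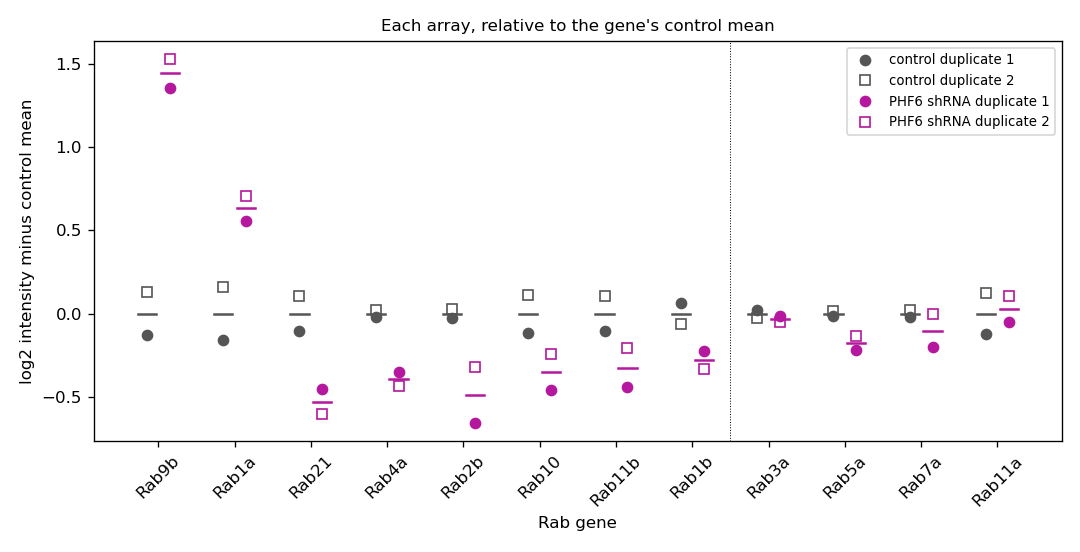
Intensity of 12 Rab genes (horizontal axis) on each of the 4 arrays, as log2 intensity minus the gene's control mean (vertical axis); circles are duplicate 1, squares duplicate 2 and horizontal bars the group means, and the dotted line separates the 8 genes with an unadjusted p under 0.05 from Rab3a, Rab5a, Rab7a and Rab11a. Rab9b and Rab1a lie higher on both PHF6 shRNA arrays, and Rab21, Rab4a, Rab2b, Rab1b, Rab10 and Rab11b lie lower on both.

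Related Rab genes were set against each other as the difference between their log2 intensities on the same array, which removes what an array adds to both. Of 18 pairs in 11 subfamilies, those of Rab9, Rab1 and Rab11 had the largest shifts between groups. The ratio of Rab9a to Rab9b stood at -1.33 and -0.86 on the PHF6 shRNA arrays relative to the control mean, while the control arrays lay 0.09 to either side of it. The ratio of Rab1a to Rab1b stood at 0.78 and 1.04, beside 0.22 to either side for the controls. For Rab11a over Rab11b the values were 0.40 and 0.31, beside 0.02 for the controls. Each of these pairs had members that differed unequally between the groups, and the next in size was Rab2a over Rab2b, at 0.30 on average. These ratios rest on the brightest probe set of each gene. Averaged over probe sets, Rab1a differed by 0.42 and Rab1b by -0.17, in place of 0.63 and -0.28. Whether probes of 1 paralog also bind the transcript of the other was not tested, since probe sequences were not used here.

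The promoter windows of Rab9b, Rab1a, Rab21 and Rab4a are shown because these 4 genes had the smallest unadjusted p of the family, 2 in each direction, and that of Rab9a as the paralog of Rab9b. Sequences are the 250 bases before the annotated start, from RefSeq on the GRCr8 build, 5′ to 3′ on the gene's strand, with motif matches in capitals. The motifs searched on both strands were the GC box GGGCGG, the CCAAT box CCAAT, the E-box CACGTG, the CRE TGACGTCA, the TATA box TATAAA and the ETS core CCGGAA, and no match overlapped another in these windows.
Rab9b: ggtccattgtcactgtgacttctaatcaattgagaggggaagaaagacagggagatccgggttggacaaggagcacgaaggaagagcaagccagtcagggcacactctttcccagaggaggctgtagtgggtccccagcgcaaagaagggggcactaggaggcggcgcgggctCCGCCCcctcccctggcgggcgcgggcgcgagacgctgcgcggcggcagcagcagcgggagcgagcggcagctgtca
Rab9a: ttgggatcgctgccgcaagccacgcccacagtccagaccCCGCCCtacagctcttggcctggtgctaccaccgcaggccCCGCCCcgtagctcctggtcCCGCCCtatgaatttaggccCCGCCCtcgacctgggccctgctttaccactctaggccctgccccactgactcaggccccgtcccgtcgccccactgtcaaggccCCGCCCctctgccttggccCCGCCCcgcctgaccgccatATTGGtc
Rab1a: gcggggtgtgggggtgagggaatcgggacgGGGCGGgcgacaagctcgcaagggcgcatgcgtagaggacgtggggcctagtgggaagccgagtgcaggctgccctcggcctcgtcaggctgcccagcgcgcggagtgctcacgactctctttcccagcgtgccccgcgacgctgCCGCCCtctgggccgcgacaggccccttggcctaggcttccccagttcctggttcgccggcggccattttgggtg
Rab21: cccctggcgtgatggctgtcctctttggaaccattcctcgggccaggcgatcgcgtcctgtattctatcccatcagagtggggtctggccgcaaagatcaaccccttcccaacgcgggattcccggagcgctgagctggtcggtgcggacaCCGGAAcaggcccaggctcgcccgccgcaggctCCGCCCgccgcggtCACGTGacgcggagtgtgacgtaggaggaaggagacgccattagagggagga
Rab4a: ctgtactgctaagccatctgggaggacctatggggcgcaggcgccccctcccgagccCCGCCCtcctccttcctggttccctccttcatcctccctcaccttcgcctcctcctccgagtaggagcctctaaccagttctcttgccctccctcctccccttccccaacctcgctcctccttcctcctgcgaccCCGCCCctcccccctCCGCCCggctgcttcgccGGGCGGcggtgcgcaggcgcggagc

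The Rab9b window lies on the minus strand at chrX:105023873-105024122 and holds 1 GC box, 77 bases before the start. The Rab9a window, on the plus strand at chrX:31609839-31610088, holds 6 GC boxes and a CCAAT box. Both paralogs are on the X chromosome, and the GC box is the motif their windows have in common. The Rab1a window at chr14:98623427-98623676 (plus strand) holds 2 GC boxes, and that of Rab4a at chr19:68692831-68693080 (plus strand) holds 4. The Rab21 window at chr7:52814944-52815193 (minus strand) holds an ETS core, a GC box and an E-box. A match is only a run of letters and was not tested as a binding site.

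A window was found for 36 of the 44 measured Rab genes, and 33469 windows were searched in all. The GC box was in 30 Rab windows (83.3%), in 30.5% of all windows and in 46.4% of those of the 14117 tested genes with a window. The CCAAT box was in 12 Rab windows (33.3%, beside 35.0% of tested genes), the ETS core in 9 (25%, beside 17.9%) and the E-box in 3, those of Rab5a, Rab21 and Rab31 (8.3%, beside 7.0%). No Rab window held the CRE (2.2% of tested genes) or TATAAA (11.1%), which says only that these letters are not in this window. The Rab windows were rich in G and C, with a median of 64.4% beside 56.8% for tested genes, and the part of base composition in their share of GC boxes was not tested.

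Across the family, 32 of 44 Rab genes (72.7%) were lower and 12 higher, with a median of -0.07, beside 52.3% lower and a median of -0.01 for all 17245 genes. The count of lower Rab genes was 27 after a further quantile normalization and 24 after cyclic loess, with medians of -0.05 and -0.04. Bright genes in general were more often lower: over 4 equal bins of mean intensity from dim to bright, 42.6%, 43.5%, 57.2% and 66% of all genes were lower. The Rab genes are mostly bright, with 33 of 44 in the brightest bin, where 26 (78.8%) were lower and the median was -0.10 beside -0.08 for all genes there. The part of brightness in the Rab counts was not tested.

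Duplicates carried a shared pattern as well. In 29 of 44 Rab genes (65.9%, beside 65.8% of all genes), replicate 2 differed from replicate 1 in the same direction in both groups, and 21 of these 29 (72.4%) were higher in replicate 2. Among all genes with a shared direction 49.1% were higher in replicate 2, and among those above background on all arrays 66%. The median size of the difference between duplicates was 0.13 in the control group and 0.17 in the PHF6 shRNA group, beside 0.13 between the group means. Single arrays vary more than means of 2 arrays, so these sizes are not directly comparable. The group difference was larger than both duplicate differences in 13 Rab genes (29.5%). That share was 26.6% of all genes and 34.3% of those above background on all arrays. Rab31, Rab9a and Rab8b were among the genes with the widest gap between duplicates, and they were higher in replicate 2 of both groups.

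**Figure D3:**
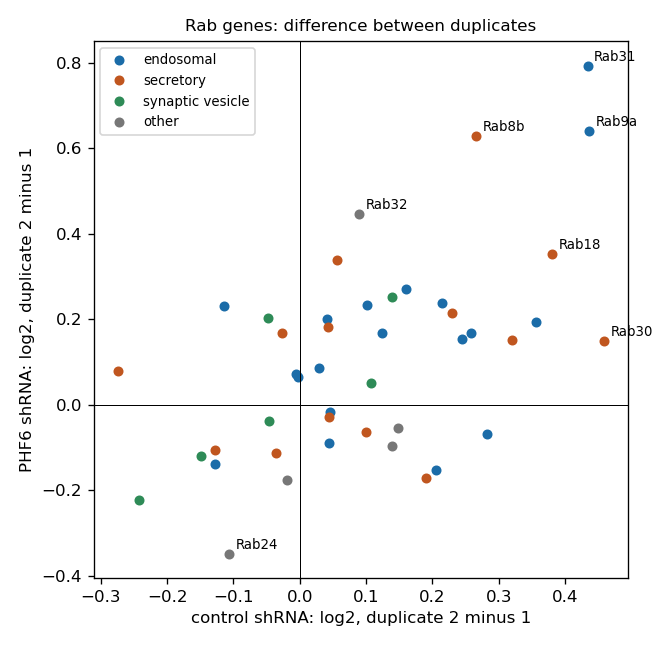
Difference of replicate 2 minus replicate 1 (log2) in the control group (horizontal axis) and in the PHF6 shRNA group (vertical axis) for the 44 Rab genes, coloured by class. Genes in the upper right and lower left, 29 of 44, differed in the same direction in both groups.

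Markers of the cells in the culture differed between the arrays too. All 7 measured astrocyte markers were higher in the PHF6 shRNA group. Their summed intensities overlapped, at 687 and 1252 on the control arrays and 1003 and 1539 on the PHF6 shRNA arrays. Only Slc1a2 and Aldoc did not overlap between groups (28.6% of the 7, beside 16% of all genes). Gfap and Gja1 differed by 0.01 and 0.03. Slc1a3 differed by 0.12 between groups, beside 1.29 and 1.26 between the control and the PHF6 shRNA duplicates. For 9 neuronal markers, 8 were lower (88.9%, beside 52.3% of all genes), with sums of 11354 and 11251 against 10193 and 10288. Of the 9, 5 were lower without overlap (55.6%, beside 21.7% of all genes). In the brightest of the 4 bins of mean intensity, 66% of all genes were lower. The 6 markers of dividing cells were all lower on average, but none of the 6 was separate between groups. Their sums were 323 and 537 on the control arrays and 232 and 574 on the PHF6 shRNA arrays. The PHF6 shRNA sum was thus below the control sum in replicate 1 and above it in replicate 2. Of 7 microglial markers, 4 were above background on no array. In bulk RNA, fewer cells of a type and less RNA per cell cannot be told apart, and the part of cell makeup in the Rab differences was not tested.

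The proteins that run the Rab cycle were examined as 6 lists of regulators and effectors, of which 103 of 118 genes were measured. Without the replicate block, none passed the adjusted threshold (0 of 103, beside 0% of all genes). With 1 array left out, the difference ranged from 0.86 to 1.26 for Chml and from -0.84 to -0.51 for Tbc1d24. At an unadjusted limma p under 0.05, 13 were lower (12.6%, beside 7.52% of all genes) and 2 higher (1.9%, beside 3.28%). In all, 70 of the 103 (68%) were lower, with a median of -0.09, beside 52.3% and -0.01 for all genes. In the brightest of the 4 bins of mean intensity, 66% of all genes were lower. The part of brightness in these counts was not tested.

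**Figure D4:**
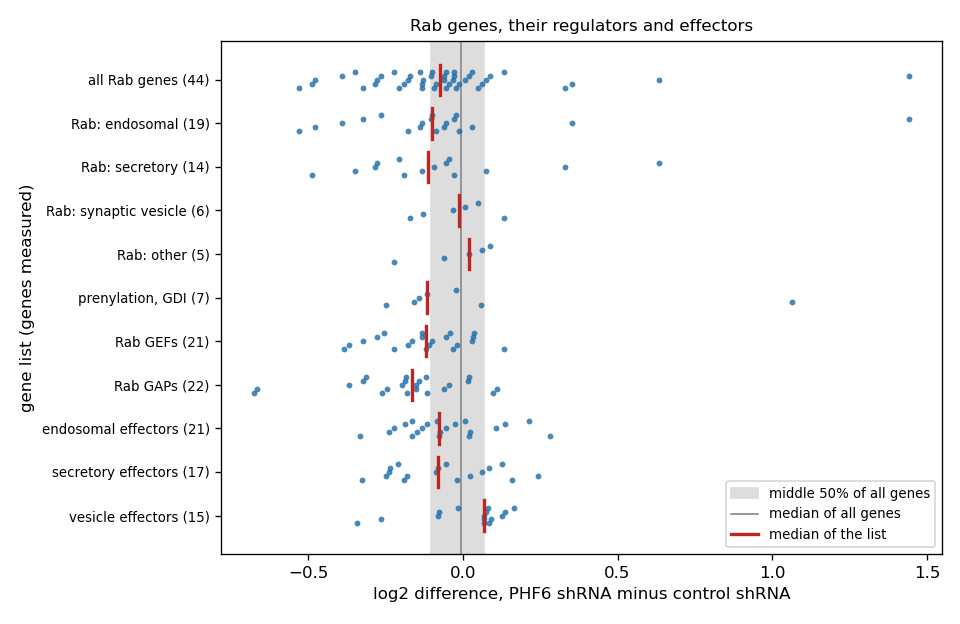
Difference between PHF6 shRNA and control shRNA neurons (log2) for each gene of the Rab classes and of the regulator and effector lists, as points, with the median of each list as a red bar; the grey line is the median of all genes and the grey band their middle 50%. The list medians lie between -0.17 for GAPs and 0.07 for synaptic vesicle effectors.

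Among the 7 measured genes of prenylation and membrane extraction, 2 were higher and 5 lower (71.4%, beside 52.3% of all genes). Chml, which encodes a Rab escort protein that presents new Rab proteins to the enzyme that lipidates them, read 113 and 141 on the control arrays and 303 and 229 on the PHF6 shRNA arrays. The groups did not overlap, and the difference of 1.06 ± 0.17 (SE; 95% interval 0.624 to 1.502; limma adjusted p = 0.23) was 2.09-fold. Rabif, a Rab-binding protein of the same list, differed by -0.25 ± 0.09 (limma adjusted p = 0.42).

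Of the 21 measured GEFs, 17 were lower (81%, beside 52.3% of all genes), with a median of -0.12. Without control replicate 2 the median was -0.05, without control replicate 1 it was -0.18, without PHF6 shRNA replicate 1 it was -0.08, and it was -0.06 under both quantile normalization and cyclic loess. Rabgef1, the GEF of Rab5, read 201 and 199 on the control arrays and 159 and 160.3 on the PHF6 shRNA arrays (-0.32 ± 0.08; limma adjusted p = 0.28). Dennd1a, a GEF of Rab35, differed by -0.38 ± 0.13. Mon1a, of the complex that activates Rab7, and Rin2, another GEF of Rab5, differed by -0.28 ± 0.09 and -0.25 ± 0.08.

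The GAPs had the lowest median of the lists, -0.17, with 18 of 22 lower (81.8%, beside 52.3% of all genes). Tbc1d24, a TBC-domain protein of synaptic vesicle recycling that is mutated in epilepsies, read 411 and 459 on the control arrays and 243 and 304 on the PHF6 shRNA arrays, or 1.60-fold lower (-0.67 ± 0.14; limma adjusted p = 0.24). Tbc1d16, a GAP for Rab4, read 278 and 336 on the control arrays and 167 and 223 on the PHF6 shRNA arrays (-0.67 ± 0.17; limma adjusted p = 0.29). Both were separate between groups. Tbc1d13 and Usp6nl, GAPs for Rab35 and Rab5, differed by -0.32 ± 0.09 and -0.32 ± 0.12.

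Of the 21 endosomal effectors 14 were lower (66.7%, beside 52.3% of all genes), with a median of -0.08. Pik3c3, the lipid kinase that makes the endosomal phosphoinositide, read 115 and 112 on the control arrays and 86 and 95 on the PHF6 shRNA arrays (-0.33 ± 0.09; limma adjusted p = 0.31). Of the 17 secretory effectors 11 were lower (64.7%), with a median of -0.08. Among them were the dynein adaptor Bicd2 (-0.33 ± 0.10) and the golgin Golga5 (-0.24 ± 0.08), while the motor Myo5b was higher by 0.24 ± 0.08 but close to background. The 15 synaptic vesicle effectors had a median of 0.07, with 10 higher, but 8 of the 15 were above background on no array, and 7 of those were among the 10. Over the 6 genes above background on at least 2 arrays the median was 0.03. Rims1 and Rims3, active zone proteins above background on 4 and 3 arrays and named here after their values were seen, differed by -0.34 and -0.27. Among the same 6 genes, Rims2, Rph3a and Rph3al were higher by 0.07, 0.14 and 0.09, and Erc2 differed by -0.02. None of the 6 had an unadjusted limma p under 0.05.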

How the data were processed

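Total RNA was measured on 4 whole-transcript arrays, 2 for each shRNA. The authors deposited 1 intensity per probe set, made with RMA per the submitters' processing notes (its version is not given in the sources used here). These deposited intensities are linear; they were converted to log2 without further normalization. Of 29214 probe sets, 18644 were annotated to 1 gene, 962 to several and 9608 to none; only the first were used. Symbols were updated by gene identifier to RefSeq GRCr8 for 18460 probe sets and kept for 184. The brightest probe set stood for a gene (879 of 17245 genes had several). The test was limma's (version 3.58.1, R 4.3.3, lmFit then eBayes, two-sided, Benjamini-Hochberg over all genes, threshold 0.05). It was checked on simulated arrays that varied independently, so the check did not cover what same-numbered arrays share. The number of arrays limits the precision. All Rab members were named, with full values at an unadjusted p under 0.05 and for Rab3a, Rab5a, Rab7a and Rab11a. From each regulator or effector list, up to 4 genes under that p were named, smallest p first. The 6 synaptic vesicle effectors above background on at least 2 arrays were named outside this rule. The members and lists were chosen with earlier results of these data known. Promoter windows of 250 bases before the RefSeq start were searched for short motifs. Alternatives covered scaling, filters, variance priors, array weights, probe sets per gene, the duplicate number as a block and leaving out arrays. Rab26, Rab37, Rab39b and 15 listed regulator or effector genes were not analysed here.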

Additional observations from a re-analysis of the deposited data

How the results depend on the processing

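Further settings were a further quantile normalization, median centring, cyclic loess, 2 filters on dim genes, 2 variance priors, weighting of arrays, averaging over probe sets and a limit of 0.1 on the adjusted p. They left the count of genes past the limma threshold at 0, for all genes and for Rab genes. The duplicate numbers are not stated to pair the arrays, and with 2 pairs the deviations of same-numbered arrays correlated across genes (r = 0.571 over all genes, 0.555 over Rab genes). With the replicate block, 909 genes passed (5.27%), 7 of them Rab genes (15.9% of 44): Rab9b and Rab1a higher, Rab2b, Rab21, Rab4a, Rab31 and Rab10 lower. Of the regulators and effectors named for an unadjusted p under 0.05, Chml, Tbc1d24, Tbc1d16 and Dennd1a passed with it, and the others did not. Their limma adjusted p was 0.012, 0.0077, 0.0077 and 0.043. These genes were picked by their p in the same data, and the number passing among all 103 was not counted. Leaving out each array in turn gave 0 to 90 genes past the threshold and 0 to 1 Rab genes. It was 90 without PHF6 shRNA replicate 2, 2 without PHF6 shRNA replicate 1 and 0 without either control array, and the lone array was then assumed to vary like the other group. With 1 array left out, differences kept their sign but ranged from -0.658 to -0.32 for Rab2b, -0.443 to -0.205 for Rab11b, 0.101 to 0.559 for Rab30 and -0.397 to -0.049 for Rab24. The median of secretory effectors ranged from -0.132 to -0.049 and was -0.03 under cyclic loess, and that of endosomal effectors was -0.046 under cyclic loess. The endosomal median ranged from -0.202 to -0.038 with 1 array left out. Among all genes with an unadjusted p under 0.05, 69.7% were lower, 58% after quantile normalization, 71.6% after centring and 53.5% after cyclic loess. Signs turned under quantile normalization for Rab5b (0.032), Rab22a (0.017), Rab39a (0.058), Rab33a (0.031) and Rab33b (0.006). Under cyclic loess they turned for Rab5b (0.043), Rab12 (0.008), Rab22a (0.035), Rab39a (0.060), Rab33a (0.042), Rab33b (0.017), Rab3a (0.021) and Rab23 (0.013). With 1 array left out, small differences took either sign. The ranges among endosomal genes were -0.092 to 0.152 for Rab11a, -0.240 to 0.042 for Rab15, -0.222 to 0.048 for Rab20, -0.199 to 0.157 for Rab22a and -0.081 to 0.057 for Rab39a. Among secretory genes they were -0.188 to 0.003 for Rab6b, -0.240 to 0.389 for Rab8b, -0.182 to 0.092 for Rab13, -0.080 to 0.020 for Rab33a and -0.111 to 0.001 for Rab33b. For the rest they were -0.069 to 0.080 for Rab3b, -0.053 to 0.15 for Rab27a, -0.134 to 0.015 for Rab23, -0.050 to 0.089 for Rab28, -0.134 to 0.312 for Rab32 and -0.026 to 0.149 for Rab38. The cause of these changes was not tested. The median interval half-width of 0.278 over Rab genes limits what 2 arrays a group can show, and genes near background are limited further.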
